A study of Mus musculus with 6 samples.

Results

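Integrins are the receptors through which a cell holds on to its surroundings, and laminins and nidogens are among the proteins they hold on to. All 39 integrin, laminin and nidogen genes, chosen by gene symbol from the 23284 genes of the count table, were followed in RNA-seq of the mouse cell lines MV+ and RAG. They were 18 integrin alpha chains, 8 integrin beta chains, 5 laminin alpha, 3 laminin beta and 3 laminin gamma chains, and 2 nidogens. MV+ cells, which the study calls Pax6-ON, were derived from lens epithelium of a wild-type C57BL6 mouse. RAG cells, called Pax6-OFF, came from a renal adenocarcinoma of the BALB/c strain. The labels name no treatment, and both lines grew in the same serum-containing medium. Each line was sequenced as 3 libraries from separate flasks, so p-values here cover only how cultures of a single line vary, and tissue of origin, strain and tumour origin cannot be told apart in any difference given here.

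An integrin is a pair of 1 alpha and 1 beta chain, and the pairing sets the ligand: some pairs bind laminins, some bind collagens, some bind the RGD sequence of fibronectin and related proteins, and some bind receptors on other cells. A laminin is a cross-shaped trimer of 1 alpha, 1 beta and 1 gamma chain that polymerises in the basement membrane, and nidogens link the laminin gamma-1 arm to the type IV collagen network. The lens is wrapped in a thick basement membrane, the lens capsule, which its epithelium secretes and rests on, and kidney tubules rest on a basement membrane of their own.

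The libraries held 17413045 to 22428230 counts in MV+ and 28252165 to 43168532 in RAG, of which 13.2 to 16.98% in MV+ and 12.4 to 20.1% in RAG fell on the ribosomal precursor Rn45s. Pax6 had 1136, 1159 and 1316 counts in MV+ and 0, 0 and 4 in RAG, which matches the names Pax6-ON and Pax6-OFF. The 8 lens markers, Pax6 among them, summed to 3546 to 3982 counts in MV+ and 1872 to 3017 in RAG. Of these, Sox2 had 1112 to 1183 counts per library in MV+, Six3 had 508 to 681 and Prox1 13 to 20, against 0 in RAG for each, while Cryab was lower in MV+ at 31.9 to 39.7 CPM, against 69.9 to 83.4 CPM in RAG, where CPM is the count scaled by the library total after TMM normalization. Foxe3 had no count in either line, Pitx3 had 0 or 1 in MV+ and 0 to 4 in RAG, and Cryaa had 3 to 10 in MV+ and 0 or 1 in RAG. Of 8 kidney markers, summed counts were 4 to 11 in MV+ and 18915 to 30996 in RAG, although Cdh1 had 0 to 2 counts in MV+ and 2 or 3 in RAG, and Epcam had 1 to 6 in MV+ and 0 in RAG. The 6 fibroblast markers summed to 42721 to 56993 counts in MV+ and 3 to 11 in RAG, although Thy1 had 0 or 1 count in each library, and the part of cells of that kind in the differences below was not tested. The 7 pancreatic beta cell markers summed to 175, 132 and 42 counts in MV+ replicates 1, 2 and 3 and to 2 in each RAG library. The paper also studied a mouse insulinoma line, called Pax6-HIGH, and the source of these counts was not tested. The fit was therefore repeated with replicate 3, where those markers were lowest, as the only MV+ library. This setting was chosen after seeing the data and assumes that MV+ varies like RAG.

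Of the 39 members, 29 had enough counts to be tested, and the 10 others are given by their counts. In the quasi-likelihood test of edgeR, with Benjamini-Hochberg adjustment over all 12965 genes tested, 20 were higher in MV+, 6 were lower and 3 did not pass an adjusted p of 0.05. Of all genes tested, 79.3% were called, 40.4% as higher in MV+ and 38.9% as lower, so a call alone sets no member apart. A fold change of over 1 on the log2 scale in either direction was seen in 15 members higher and 6 lower, against 18.7% of all genes tested higher and 16.4% lower (35.2% in both directions). The libraries of the lines did not overlap for 26 of the 29 members, against 80.6% of all genes tested. The median log2 fold change, MV+ minus RAG, was 1.09 over the tested members and 0.03 over all genes tested. A member with counts in 1 line alone could enter the test only through that line, so these counts and medians describe the tested members and are not support for a shift of the family. Differences in either direction were widest for Nid1, Itgb8 and Lama2, which were near or at 0 in RAG, and for Itgb2 and Itga7, which were lower in MV+. Because these are bulk samples, fewer cells with a transcript and less of it per cell cannot be told apart.

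**Figure D1:**
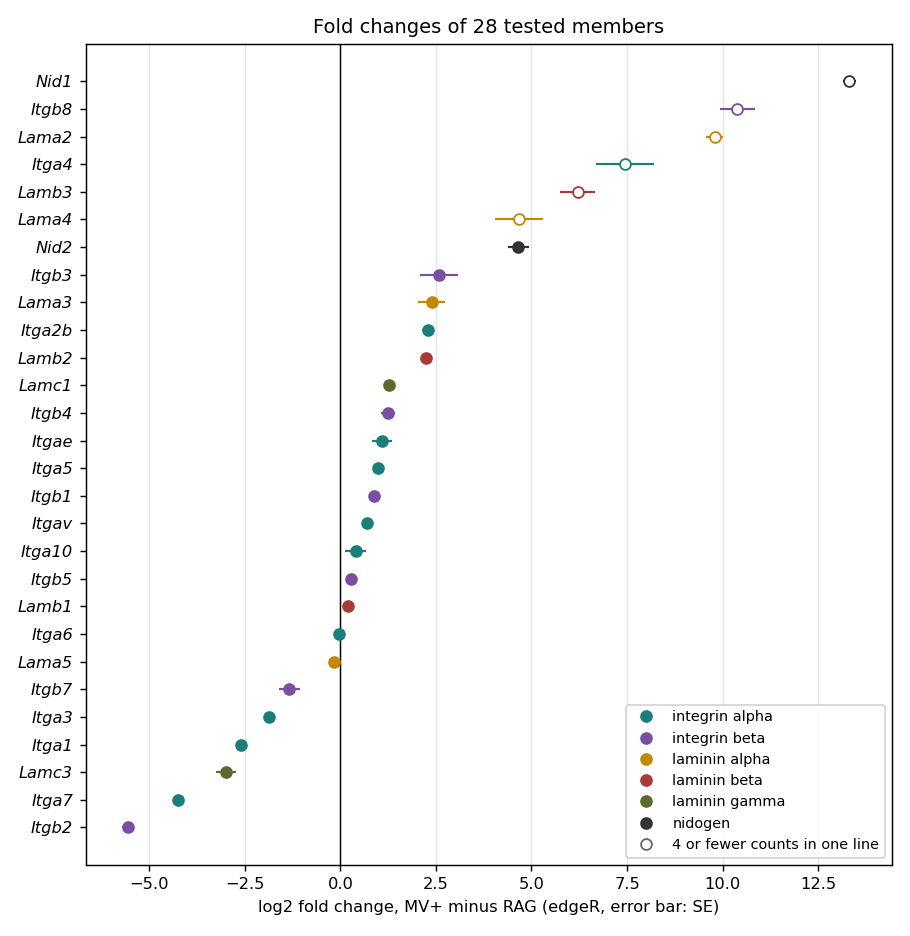
The log2 fold change (MV+ minus RAG, x axis) is drawn for 28 of the 29 tested members, ordered by size, with the standard error as a bar and the class as colour. Open points mark members with at most 4 counts in a line, which fill the upper end from Lama4 (4.68) to Nid1 (13.31), and the lower end is Itgb2 at -5.57.

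The promoters of 4 members are shown, those of Nid1, Lama2 and Itgb8 because they were near or at 0 in RAG, and that of Itga3 because it was the integrin alpha chain with the highest level in RAG. Each sequence is the 250 bases before the start site in the RefSeq table (GRCm38.p6), with CG dinucleotides in capitals. It was placed on mm9 by its only exact match on the gene's chromosome and is read 5′ to 3′ on the gene's strand.
Nid1, chr13:13529619-13529868, plus strand: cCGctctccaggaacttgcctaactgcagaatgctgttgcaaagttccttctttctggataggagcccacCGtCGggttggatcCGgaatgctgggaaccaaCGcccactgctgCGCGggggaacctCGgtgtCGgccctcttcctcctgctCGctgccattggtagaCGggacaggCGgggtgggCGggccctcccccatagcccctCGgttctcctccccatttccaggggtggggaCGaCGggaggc
Lama2, chr10:27336749-27336998, minus strand: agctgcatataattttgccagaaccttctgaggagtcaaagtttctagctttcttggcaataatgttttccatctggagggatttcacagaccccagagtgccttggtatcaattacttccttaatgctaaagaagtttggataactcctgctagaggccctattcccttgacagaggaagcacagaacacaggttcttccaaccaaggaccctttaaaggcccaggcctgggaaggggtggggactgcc
Itgb8, chr12:120476750-120476999, minus strand: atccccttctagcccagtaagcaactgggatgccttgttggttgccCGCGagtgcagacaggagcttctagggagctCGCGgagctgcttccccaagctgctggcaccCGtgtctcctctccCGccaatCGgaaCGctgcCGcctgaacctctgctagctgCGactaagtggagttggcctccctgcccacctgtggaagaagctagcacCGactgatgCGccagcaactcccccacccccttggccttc
Itga3, chr11:94938029-94938278, minus strand: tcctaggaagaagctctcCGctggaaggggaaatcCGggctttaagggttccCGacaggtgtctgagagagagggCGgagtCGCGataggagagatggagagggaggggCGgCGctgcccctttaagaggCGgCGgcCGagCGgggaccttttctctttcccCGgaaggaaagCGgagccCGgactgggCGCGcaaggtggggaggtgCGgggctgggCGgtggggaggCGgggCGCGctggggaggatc
The Nid1 promoter held 16 CG dinucleotides, more than 74.6% of 32851 mouse promoters of that length, Itgb8 held 12, more than 66.5%, and Itga3 held 22, more than 85.2%. The Lama2 promoter held 0. The promoters of the genes near 0 in RAG thus differed in CG content among themselves.

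Of the 39 members, 24 had an entry in the table. Their CG counts had a median of 11.5 in the 12 members higher in MV+, 10.0 in the 3 lower and 11.0 in the other 9. The window of Itga9, which was included, lay before a start site 104983 bases inside the gene as counted. Both strands were searched for 4 motifs, none of which contains another. The GC box GGGCGG was found in 9 of the 24 members' promoters and in 32.7% of all promoters, including 1 match in Nid1 and 3 in Itga3. The E-box CAGGTG was found in 6 of 24 and in 17.2%, including 1 match each in Itgb8 and Itga3 and 2 in the Itga9 window. The AP-1 site TGANTCA was found in 1 of 24 and in 6.75%. TATAAA was found in 0 of 24 and in 12.4% of all promoters. A match of letters is a description of the sequence and not a bound site.

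Nidogen-1, the main link between laminin and type IV collagen, was the member that differed most. Nid1 had 6489, 7420 and 8498 counts in the MV+ libraries and 0, 2 and 1 in the RAG libraries. Its level was 62.2 ± 0.526 FPKM in MV+ and 0.00518 ± 0.00597 FPKM in RAG (SD, n = 3 each), where FPKM is the deposited count scaled to exon length and library total. The 3 MV+ libraries were alike to within 61.6 to 62.7 FPKM, and no RAG library held more than 2 counts. The ratio of counts, scaled by library size, was 11687.5, with a 95% counting interval from 3999 to 56678. Its fitted log2 fold change was 13.31 ± 0.17 (SE, adjusted p = 1.94e-17) and was 14.24 without RAG replicate 2, since it rests on 3 RAG counts. Nidogen-2, its paralogue with a similar domain order, had 58, 80 and 77 counts in MV+ and 3, 3 and 7 in RAG. Nid2 was higher in MV+ by 4.65 ± 0.27 (adjusted p = 2.92e-10), without overlap, but its level in MV+ of 0.739 ± 0.0812 FPKM left Nid1 with 98.8% of the nidogen FPKM there. Of the exon bases of Nid2, 7.90% are shared with 2700060E02Rik, and reads were counted without regard to strand.

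The laminin alpha chains carry the globular domains that integrins and dystroglycan bind. Lama5, the alpha chain of laminin-511 and laminin-521, was the leading alpha chain of both lines, with 12.5, 11.6 and 14.6 FPKM in MV+ and 12.3, 11.5 and 14.3 FPKM in RAG. These values overlapped, and the log2 fold change was -0.16 ± 0.08 (adjusted p = 0.0812). With the replicate number as a block the same size of difference, -0.16, had an adjusted p of 0.00446, and the sign depended on scaling, since it was 0.02 on deposited FPKM or with library totals. Lama2, the alpha chain of the laminins of muscle and peripheral nerve (merosin), separated the lines. It had 726, 931 and 862 counts in MV+ and 1, 2 and 1 in RAG, a ratio of 985 (95% counting interval from 384 to 3620), and its level in MV+ was 4.37 ± 0.461 FPKM. The fitted log2 fold change of Lama2 was 9.80 ± 0.22 (adjusted p = 2.31e-15).

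The other laminin alpha chains were low in both lines. Lama4, the alpha chain of blood vessel and mesenchymal laminins, had 9, 16 and 15 counts in MV+ and 0, 0 and 2 in RAG. Its ratio was 31.3 (95% counting interval from 8.12 to 267), and the fitted log2 fold change was 4.68 ± 0.63 (adjusted p = 5.43e-06) with all libraries and 6.92 without RAG replicate 3, which held both RAG counts. Lama3, the alpha chain of the epithelial laminin-332, had 14, 19 and 22 counts in MV+ and 7, 3 and 6 in RAG (log2 fold change 2.39 ± 0.35, adjusted p = 1.44e-05) at levels of 0.0886 ± 0.00946 FPKM in MV+ and 0.0146 ± 0.00498 FPKM in RAG. Lama1, the alpha chain of the laminin of the early embryo and of the lens capsule, had 1, 1 and 2 counts in MV+ and 0 in RAG and was not tested. Its counts allow only a ratio of at least 2.09, against 3 counts over the RAG libraries.

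Lamb1, the most common laminin beta chain, was at 223, 217 and 249.5 CPM in MV+ and 203, 197 and 203 CPM in RAG. The lines did not overlap, but the difference was small, with a log2 fold change of 0.19 ± 0.07 (adjusted p = 0.0174). It did not pass without MV+ replicate 3 (0.13, adjusted p = 0.102) or without RAG replicate 2 (0.17, adjusted p = 0.0579). Lamb2, the beta chain of the glomerular and synaptic basement membranes, was at 92.8, 98.0 and 94.7 CPM in MV+ and 20.8, 19.8 and 20.2 CPM in RAG. These values were tight within each line and far apart between them, at a log2 fold change of 2.23 ± 0.07 (adjusted p = 1.31e-13). Lamb3, the beta chain of laminin-332, had 49, 44 and 70 counts in MV+ and 0, 0 and 3 in RAG, a ratio of 85.0 (95% counting interval from 28.6 to 417). Its fitted log2 fold change was 6.21 ± 0.45 (adjusted p = 4.18e-09) and was 8.94 without RAG replicate 3.

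Lamc1, the gamma chain of most laminins and the one that nidogens bind, was at 349, 340.4 and 321 CPM in MV+ and 142, 143 and 134 CPM in RAG. It was higher in MV+ by 1.27 ± 0.07 on the log2 scale (adjusted p = 6.45e-11). Lamc3, a gamma chain known from retina, brain and kidney, went the other way and was lower in MV+. It had 4, 5 and 8 counts in MV+ and 68, 58 and 87 in RAG (log2 fold change -2.99 ± 0.27, adjusted p = 5.42e-08). For Lamc1 and Lamc3 the MV+ and RAG libraries did not overlap.

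**Figure D2:**
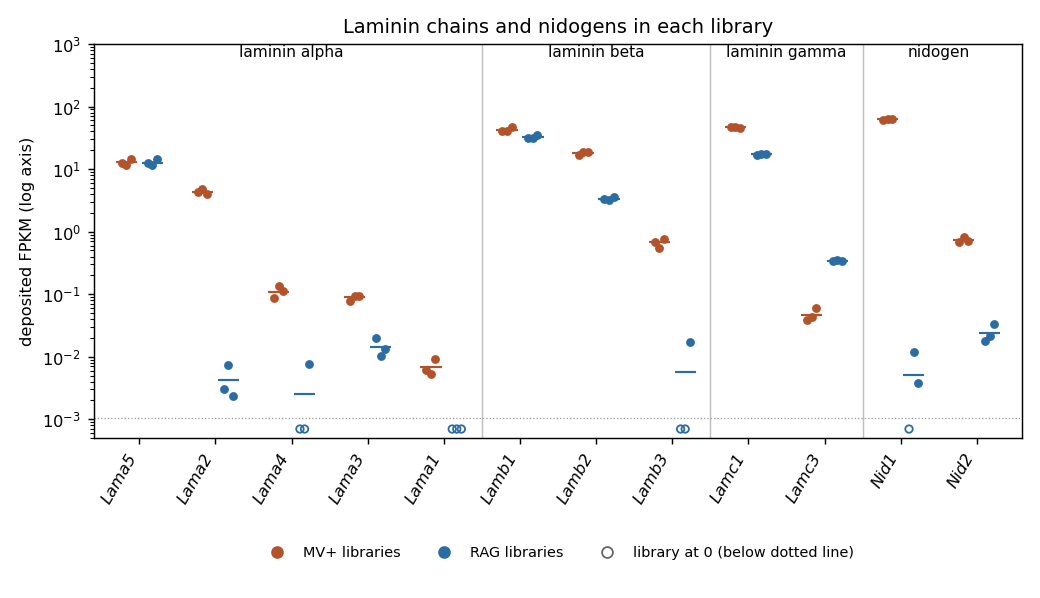
Deposited FPKM (log axis) of 10 laminin chains and 2 nidogens is drawn for each MV+ and RAG library as a point, with the mean of the line as a dash and libraries at 0 as open points below the dotted line. Lama5 sits at 12.9 FPKM in MV+ and 12.7 FPKM in RAG on average, while Nid1 sits at 62.2 FPKM in MV+ and 0.00518 FPKM in RAG.

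Among the integrin beta chains, Itgb1, the partner of most alpha chains, led in both lines. It was at 403, 449.6 and 408 FPKM in MV+ and 187, 208 and 204 FPKM in RAG. Every MV+ library was above every RAG library, with a log2 fold change of 0.89 ± 0.07 (adjusted p = 1.09e-08). Itgb5, which pairs with Itgav as a vitronectin receptor, was at 113, 117 and 108 CPM in MV+ and 93.8, 92.4 and 94.1 CPM in RAG (log2 fold change 0.27 ± 0.06, adjusted p = 0.00107). With replicate 3 as the only MV+ library the value was 0.22 and did not pass (adjusted p = 0.0573). Itgb8, which with Itgav binds latent TGF-beta, had 127, 132 and 129 counts in MV+ and none in RAG. It was at least 202-fold higher in MV+ against 3 counts over the RAG libraries (adjusted p = 1.01e-10), and its level in MV+ was 2.13 ± 0.251 FPKM.

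Itgb2, the beta chain of the leukocyte integrins, was the member that was lowest in MV+ relative to RAG. It had 12, 11 and 19 counts in MV+ and 965, 796 and 1379 in RAG (log2 fold change -5.57 ± 0.14, 47.4-fold lower in MV+, adjusted p = 7.99e-15), and its level was 0.244 ± 0.0505 FPKM in MV+ and 10.3 ± 0.725 FPKM in RAG. The alpha chains that pair with it were not found at a like level. Itgal had 0 or 1 counts per library in MV+ and 2, 3 and 3 in RAG, and Itgam, Itgax and Itgad had 0 or 1 in MV+ and at most 2 in RAG. The 12 leukocyte, platelet and endothelial markers summed to 24, 13 and 36 counts in MV+ and 58, 49 and 55 in RAG, with 5 of the 12 at 0 in MV+ and 3 at 0 in RAG. Scaled by library, the markers summed to 1.33, 0.619 and 1.47 CPM in MV+ and 1.91, 1.88 and 1.28 CPM in RAG, with overlap. Among them Ptprc (CD45), present on nearly all leukocytes, had 2 counts over the MV+ libraries and 23 over the RAG libraries. In the same way Lcp1 had 3 and 38, while Kdr had 13 and 4. Gp1ba held the most counts of the markers in both lines, 51 in MV+ and 72 in RAG, or 0.805 ± 0.369 CPM in MV+ and 0.721 ± 0.0695 CPM in RAG. Itgb2 had 3140 counts over the RAG libraries.

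Itgb7, the beta chain of gut-homing lymphocyte integrins, was at 3.23, 3.76 and 6.96 CPM in MV+ and 10.2, 11.9 and 13.7 CPM in RAG. MV+ replicate 3 stood above the other MV+ libraries but below all RAG libraries. The log2 fold change was -1.33 ± 0.27 (adjusted p = 0.00266), was -1.77 without MV+ replicate 3 and was -0.78 with replicate 3 as the only MV+ library. The alpha chains it pairs with were low, since Itga4 was at 0.0861 ± 0.0164 FPKM in MV+ and at 0 in RAG, and Itgae at 0.308 ± 0.0512 FPKM in MV+ and 0.125 ± 0.0241 FPKM in RAG. The remaining beta chains were low in both lines. Itgb4, the hemidesmosome chain that pairs with Itga6, had 47, 58 and 71 counts in MV+ and 33, 26 and 57 in RAG (log2 fold change 1.25 ± 0.19, adjusted p = 1.53e-05) at levels of 0.476 ± 0.0378 FPKM in MV+ and 0.174 ± 0.0351 FPKM in RAG. Itgb3, the beta chain of the platelet fibrinogen receptor and of the vitronectin receptor, had 13, 8 and 11 counts in MV+ and 3, 1 and 4 in RAG (log2 fold change 2.59 ± 0.49, adjusted p = 1.80e-04). Itgb6, an epithelial partner of Itgav, had 1 count in each MV+ library and 6, 4 and 13 in RAG and was not tested, with a ratio of 0.204 (95% counting interval from 0.0392 to 0.676).

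The laminin-binding alpha chains were Itga3, Itga6 and Itga7, and 2 of these were lower in MV+. Itga3, a receptor for laminin-511 and laminin-332, was at 203, 209.7 and 216 CPM in MV+ and 803, 745 and 759 CPM in RAG. It was lower in MV+ by a log2 fold change of -1.88 ± 0.07 (adjusted p = 5.52e-13). Itga7, best known as the laminin receptor of muscle fibres, was at 14.5, 15.5 and 16.2 CPM in MV+ and 297, 280.1 and 304 CPM in RAG (log2 fold change -4.25 ± 0.08, adjusted p = 2.90e-16). The lines were far apart and the libraries of each line close together. Itga6, the partner of Itgb1 and Itgb4 on epithelia, was at 79.9, 91.4 and 92.2 CPM in MV+ and 88.0, 96.4 and 86.1 CPM in RAG. The lines overlapped, and the log2 fold change of -0.04 ± 0.08 (adjusted p = 0.665) changed sign with the scaling and with the libraries left out, over a range from -0.08 to 0.15 in the alternatives.

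Of the alpha chains that bind fibronectin and other RGD proteins, Itga5, Itgav and Itga2b were higher in MV+. Itga5, the classical fibronectin receptor chain, was at 165, 161 and 171 CPM in MV+ and 84.1, 77.8 and 87.2 CPM in RAG (log2 fold change 0.99 ± 0.07, adjusted p = 1.69e-09). Itgav, which pairs with Itgb1, Itgb3, Itgb5, Itgb6 and Itgb8, was at 344, 403 and 401 CPM in MV+ and 206, 251 and 246 CPM in RAG (log2 fold change 0.71 ± 0.09, adjusted p = 2.74e-06). Replicate 1 was the lowest library of its line for Itgav in both lines. Itga2b, the platelet alpha chain, had 163, 224 and 199 counts in MV+ and 58, 44 and 87 in RAG (log2 fold change 2.29 ± 0.15, adjusted p = 1.06e-09). Its only beta partner, Itgb3, was at 0.0948 ± 0.0307 FPKM in MV+ and 0.0125 ± 0.00554 FPKM in RAG. Itga8 had at most 2 counts in any MV+ or RAG library and was not tested. The same held for Itga9, which is not counted here among the RGD-binding chains.

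Of the collagen-binding alpha chains, Itga1 was lower in MV+ and the others were low in both lines. Itga1, a type IV collagen receptor, was at 2.78, 2.57 and 2.77 CPM in MV+ and 17.6, 16.2 and 15.7 CPM in RAG (log2 fold change -2.61 ± 0.12, adjusted p = 1.20e-11). Nearby on chromosome 13, Itga2, a type I collagen receptor, had 6, 4 and 4 counts in MV+ and 1, 0 and 1 in RAG, a ratio of 11.0 (95% counting interval from 2.52 to 99.3), and was not tested. On mm9, Itga2 spans chr13:115626120-115722249 and Itga1 spans chr13:115748289-115892172, both on the minus strand, so on the same stretch of chromosome Itga1 was called lower in MV+ while the counts of Itga2 were more in MV+. Itga10, a cartilage collagen receptor, had 15, 19 and 28 counts in MV+ and 21, 14 and 39 in RAG, with overlap and a log2 fold change of 0.40 ± 0.27 (adjusted p = 0.190). Itga11, a fibroblast collagen receptor, had 11, 15 and 6 counts in MV+ and 4, 4 and 8 in RAG and was not tested.

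The last alpha chains, Itga4 and Itgae, are best known from lymphocytes. Itga4, which binds VCAM-1 and fibronectin, had 14, 14 and 23 counts in MV+ and none in RAG, at least 26.6-fold higher in MV+ against 3 counts over the RAG libraries (adjusted p = 7.60e-07). Of its exon bases, 1.69% are shared with Cerkl, on counts made without strand. Itgae, which with Itgb7 binds E-cadherin, had 25, 32 and 26 counts in MV+ and 23, 13 and 25 in RAG (log2 fold change 1.09 ± 0.26, adjusted p = 0.00128). With replicate 3 as the only MV+ library it was 0.79 and did not pass (adjusted p = 0.0974). In that setting 18 members were higher in MV+ and 6 lower. The beta cell markers summed to 9.73, 6.28 and 1.71 CPM in MV+ replicates 1, 2 and 3. In that order Itga4 was at 0.779, 0.666 and 0.936 CPM, and Itgb8 at 7.06, 6.28 and 5.25 CPM. Lama2 was at 40.4, 44.3 and 35.1 CPM, and Nid1 at 361, 353 and 346 CPM. Itgae was at 1.39, 1.52 and 1.06 CPM, and Itga11 at 0.612, 0.714 and 0.244 CPM. Whether beta cell material adds to these values was not tested.

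**Figure D3:**
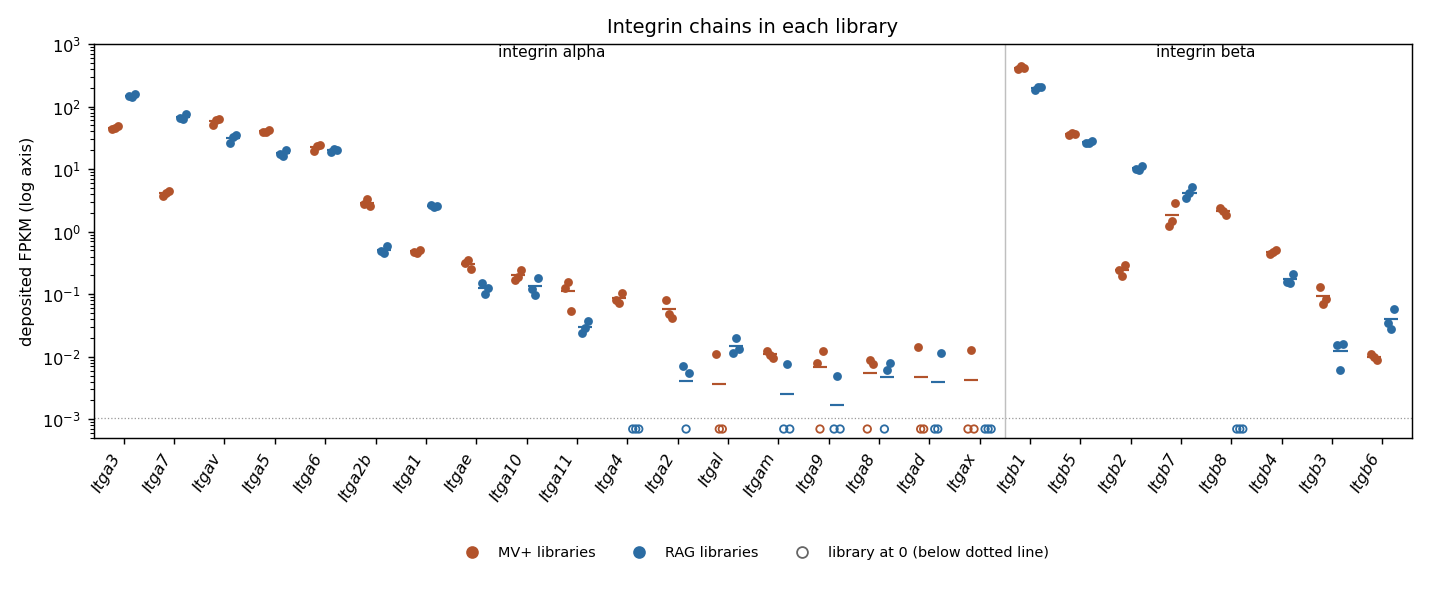
Deposited FPKM (log axis) of the 18 integrin alpha and 8 integrin beta chains is drawn for each MV+ and RAG library as a point, with the mean of the line as a dash and libraries at 0 as open points below the dotted line. Itgb1 is the highest chain in both lines, at 420.2 FPKM in MV+ and 199.7 FPKM in RAG, and Itga7 averages 4.09 FPKM in MV+ and 68.7 FPKM in RAG.

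Since FPKM is per length, the chains can be ranked within a line. In MV+ the integrin alpha chains ran Itgav (57.9 ± 6.59 FPKM), Itga3 (46.0 ± 2.89), Itga5 (40.4 ± 2.10), Itga6 (22.3 ± 2.34), Itga7 (4.09 ± 0.357) and Itga2b (2.87 ± 0.386), with no overlap between neighbours. In RAG they ran Itga3 (149 ± 7.21 FPKM), Itga7 (68.7 ± 6.0), Itgav (31.3 ± 4.50), Itga6 (20.1 ± 1.22), Itga5 (17.9 ± 1.82) and Itga1 (2.59 ± 0.0787), where Itga6 and Itga5 overlapped. The fibronectin receptor chains thus stood higher in the MV+ order and the laminin receptor chains Itga3 and Itga7 at the head of the RAG order. Among the beta chains, Itgb1 and Itgb5 came first in both lines, followed in MV+ by Itgb8 and Itgb7, which overlapped, and in RAG by Itgb2 and Itgb7, which did not.

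The make-up of each class was compared as the share of a chain in the summed FPKM of its class. Itgav took 33.1 ± 1.39% of the integrin alpha FPKM in MV+ and 10.8 ± 1.27% in RAG, and Itga3 took 26.3 ± 0.575% in MV+ and 51.3 ± 1.43% in RAG. Itgb1 took 91.0 ± 0.344% of the beta chains in MV+ and 82.8 ± 0.970% in RAG. Lama5 made up 73.6 ± 4.10% of the laminin alpha FPKM in MV+, where Lama2 made up 25.2 ± 3.98%, against 99.8 ± 0.0172% for Lama5 in RAG. Laminin beta was also more mixed in MV+, with Lamb1 at 69.3 ± 1.72% in MV+ and 90.6 ± 0.0967% in RAG, and Lamc1 was at 91.9 ± 0.602% of the gamma chains in MV+ and 95.7 ± 0.272% in RAG. Nid1 took 98.8 ± 0.125% of the nidogen FPKM in MV+ and 15.1 ± 17.98% in RAG. In RAG that share rests on 3 counts of Nid1 and 13 of Nid2 in all, and both nidogens were higher in MV+. The libraries of the lines did not overlap for any of these 7 shares, and each had an exact two-sided permutation p of 0.10, also after Benjamini-Hochberg adjustment. That is the smallest p that 3 against 3 libraries allow, so none could reach 0.05.

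**Figure D4:**
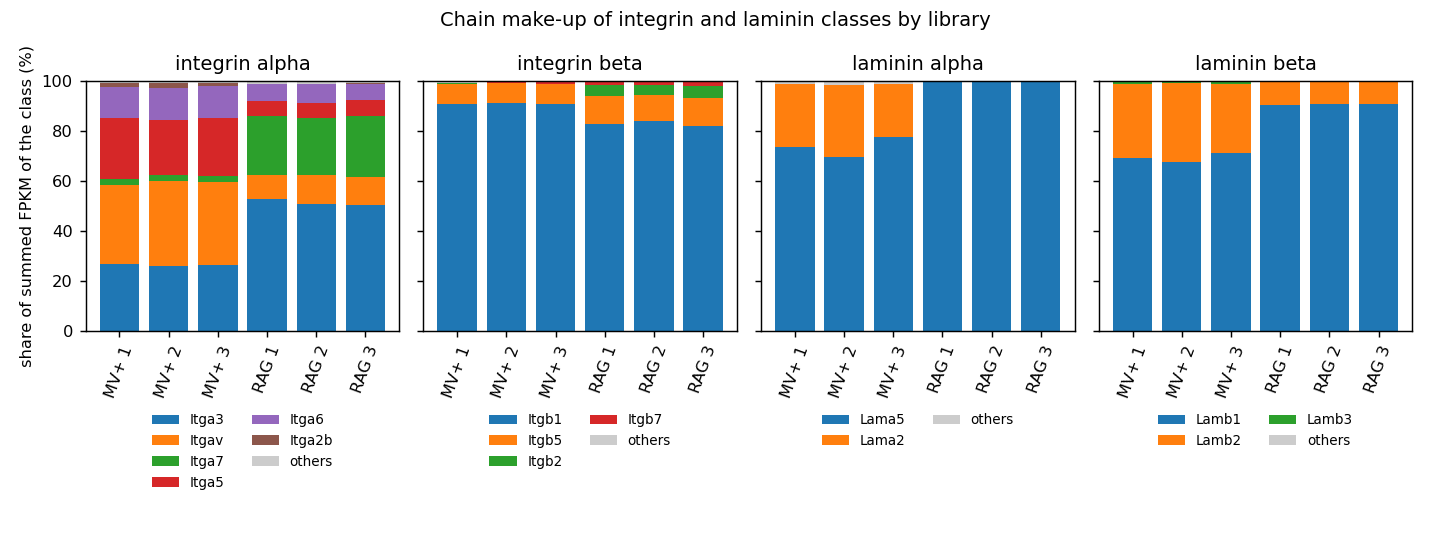
Each bar is a library, with the 3 MV+ libraries left of the 3 RAG libraries, and its segments are the share (%) of each chain in the summed FPKM of the integrin alpha, integrin beta, laminin alpha or laminin beta class. Lama5 fills 99.8% of the laminin alpha bar in RAG on average, against 73.6% in MV+, and Itga3 fills 26.3% of the integrin alpha bar in MV+ and 51.3% in RAG.

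A heterodimer or trimer needs each of its chains, so the lowest chain of each known complex was taken. Of 24 known integrin pairs, 7 had every chain at 1 FPKM or more in MV+ and 7 in RAG, and 6 were the same pairs: Itgb1 with Itga3, Itga5, Itga6, Itga7 or Itgav, and Itgav with Itgb5. The pair of Itgav and Itgb8 passed in MV+ alone, limited by Itgb8 at 2.13 FPKM, and the pair of Itga1 and Itgb1 passed in RAG alone, limited by Itga1 at 2.59 FPKM. Of 12 laminin trimers, laminin-211, laminin-221, laminin-511 and laminin-521 passed in MV+, and laminin-511 and laminin-521 in RAG. Laminin-332 did not pass, limited in MV+ by Lama3 at 0.0886 FPKM and limited in RAG by Lamb3. These are transcript levels, and whether the complexes formed was not measured.

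The partners of the members were then read from 5 lists, and each gene named from them was called at an adjusted p of at most 0.00829 (Pomt1). As with the members, a gene near 0 in RAG could enter the test only through MV+, so the counts and medians of the lists describe the tested genes and are not support for a shift of a list. In the basement membrane, Col4a1, a main chain of the type IV collagen network to which nidogen links laminin, had 4411, 4734 and 5321 counts in MV+ and 1, 3 and 1 in RAG, a ratio of 4527 (95% counting interval from 1940 to 13945). Pxdn, the peroxidase that crosslinks type IV collagen, had 2135, 2306 and 2402 counts in MV+ and 0, 0 and 1 in RAG, and Col4a6, a minor type IV chain, had 1301, 1414 and 1685 in MV+ and 2, 1 and 0 in RAG. Nid1 was near 0 in RAG too, but these genes were named for their large fold changes, so this describes them and not the list. On the list, Col4a2 was also near 0 in RAG (0.288 CPM), while Col4a5 (43.6 CPM) and Hspg2 (60.6 CPM) were not. In the other direction, Col18a1, the collagen that releases endostatin, was at 46.4 ± 2.53 CPM in MV+ and 515 ± 8.93 CPM in RAG (log2 fold change -3.47 ± 0.07). Tinagl1, a matrix protein, was at a log2 fold change of -2.57 ± 0.27, and Ntn1, the guidance cue netrin-1, at -1.11 ± 0.07. Of 24 basement membrane partner genes, 18 entered the test. MV+ was higher for 13 of them and lower for 5, so all 18 were called, against 79.3% of all genes tested, 40.4% as higher and 38.9% as lower. The median log2 fold change was 3.50, against 0.03 over all genes tested. Among the genes higher in MV+, Col4a1, Col4a2, Col4a4, Col4a6, Pxdn, Npnt, Fras1 and Fbln1 passed the filter through MV+ alone. The RAG means of these genes were at most 0.330 CPM (Fbln1), so the median rests in large part on genes that entered in this way.

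Among 28 integrin ligand genes other than laminins, 19 entered the test, 15 called higher in MV+, 3 called lower and 1 not called. This is 94.7% called, against 79.3% of all genes tested, and the median log2 fold change was 5.76, with Fn1, Col1a1 and Col3a1 among the genes that passed the filter through MV+ alone. Fn1, fibronectin and the ligand of the Itga5 pair, had 18071, 18403 and 17410 counts in MV+ and 0, 4 and 3 in RAG. Col1a1, a chain of type I collagen, had 19986, 33317 and 27935 counts in MV+ and 2, 2 and 5 in RAG, and Col3a1, of type III collagen, had 3233, 4373 and 3790 in MV+ and none in RAG, at least 5944-fold higher. These 3 genes are also abundant products of fibroblasts, and Col1a1 and Fn1 are in the fibroblast marker list above. Spp1, osteopontin and an RGD ligand of Itgav pairs, went the other way, at 171 ± 8.77 CPM in MV+ and 2949 ± 123 CPM in RAG (log2 fold change -4.11 ± 0.08). Mfge8, an RGD protein of milk fat globules, was at -0.91 ± 0.06 and Adam9, a membrane protease, at -0.26 ± 0.07, although Adam9 was at -0.08 (adjusted p = 0.337) and did not pass with library totals.

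Inside the cell, 28 talin, kindlin and focal adhesion genes link integrins to actin, and 25 entered the test, 14 called higher in MV+, 6 called lower and 5 not called, at a median of 0.28. The share called, 80.0%, was close to the 79.3% of all genes tested. Zyx, zyxin, was at 179 ± 31.9 CPM in MV+ and 36.7 ± 3.08 CPM in RAG (log2 fold change 2.29 ± 0.13), Vcl, vinculin, at 1.80 ± 0.08, and Tns3, a tensin, at 1.76 ± 0.07. Lims2 (PINCH-2), an adaptor of the ILK complex, had 9, 6 and 1 counts in MV+ and 161, 130 and 210 in RAG (-4.29 ± 0.32), and was at -4.99 without MV+ replicate 1, -3.70 without MV+ replicate 3 and -6.82 with replicate 3 as the only MV+ library. Ptk2b, the FAK-related kinase PYK2, was at 2.67 ± 0.824 CPM in MV+ and 40.1 ± 3.54 CPM in RAG (-3.89 ± 0.16), and Itgb1bp1 (ICAP-1), which binds the Itgb1 tail, was at -1.21 ± 0.08.

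Laminin receptors outside the integrin family and the partners of integrins in the membrane split in both directions. Of 20 dystroglycan complex and other laminin receptor genes, 16 entered the test, 9 called higher in MV+, 6 called lower and 1 not called (93.8% called, against 79.3% of all genes tested), at a median of 0.23. Sdc2, the heparan sulfate proteoglycan syndecan-2, had 2362, 2791 and 2945 counts in MV+ and 0, 1 and 0 in RAG. Bcam, the Lutheran receptor for laminin alpha-5, had 240, 262 and 339 in MV+ and 1, 0 and 1 in RAG, and Sgce, epsilon-sarcoglycan, had 332, 318 and 393 in MV+ and 1 in each RAG library. Sdc4 at -0.82 ± 0.07 and Sdc1 at -0.76 ± 0.07, also syndecans, and Pomt1, an enzyme of dystroglycan glycosylation, at -0.29 ± 0.09 were lower in MV+, although Pomt1 was at -0.11 (adjusted p = 0.344) and did not pass with library totals. Of 9 hemidesmosome and tetraspanin genes, all tested, 4 were called higher in MV+ and 5 lower, against 79.3% called of all genes tested, and the median was -0.18. The tetraspanin Cd151, which binds laminin-binding integrins, was higher at 0.66 ± 0.08, as were the cytolinkers Plec at 0.52 ± 0.07 and Dst at 0.36 ± 0.08, and the tetraspanins Cd63 at -1.38 ± 0.10, Cd9 at -1.02 ± 0.07 and Tspan4 at -0.78 ± 0.12 were lower.

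**Figure D5:**
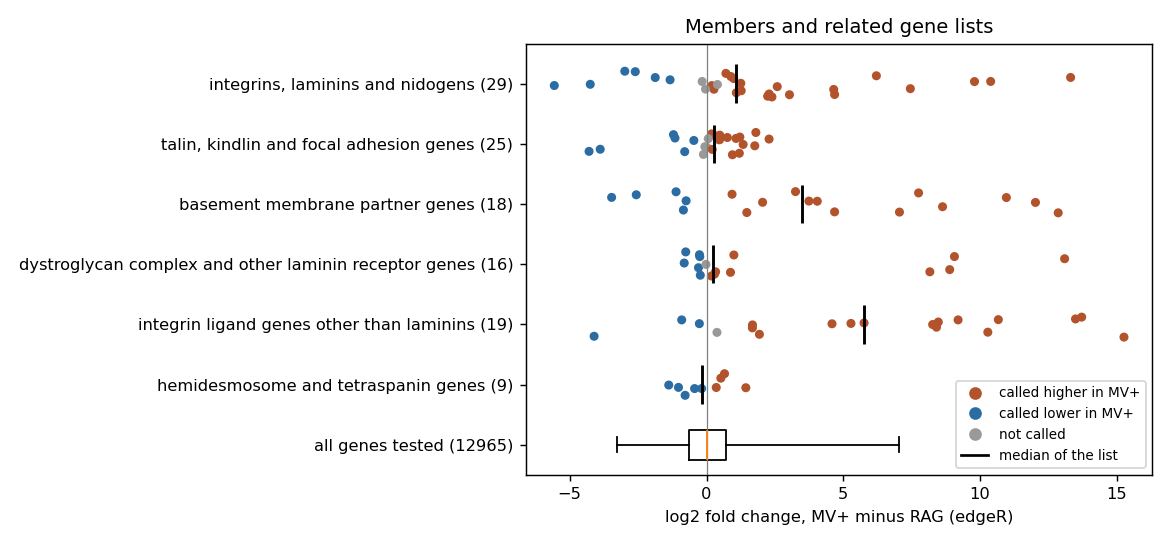
The log2 fold change (MV+ minus RAG, x axis) of every tested gene is drawn as a point for the members and for 5 lists of related genes, with the median as a black line, above a box of all 12965 genes tested (quartiles, whiskers from the 5th to the 95th percentile). The medians are 1.09 for the members, 5.76 for the integrin ligands, 3.50 for the basement membrane partners and -0.18 for the hemidesmosome and tetraspanin genes, against 0.03 for all genes tested.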

How the data were processed

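Ribosome-depleted total RNA of 6 libraries, 3 of MV+ and 3 of RAG, was sequenced on an Illumina instrument with a read length of 50 nt, unpaired. Per the labels and methods, the authors mapped reads to mm9 with TopHat2 version 2, used SAMtools 1.6 and made raw counts per gene with featureCounts 1.5.0-p3 at default settings, without strand. The deposited counts had 1 column per library, and the deposited FPKM were recomputed from counts and exon lengths within 5.8e-14.

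Counts were tested with edgeR 4.0.16 in R 4.3.3 (robust quasi-likelihood test, filterByExpr, TMM, no block), with Benjamini-Hochberg adjustment over all 12965 genes tested and a threshold of 0.05. The SE is the log2 fold change over the square root of F. CPM use TMM-scaled totals. A floor of 3 counts corresponds to 0.0697 to 0.167 CPM in a library, and bounds and counting intervals (95%, exact) cover counting error only. Libraries of a line differed by more than sampling noise (chi-square per degree of freedom 8.87 to 92.7). Steps were tested on simulated data.

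Replicate numbers in the titles were shared by the lines. Deviations from the line means correlated at r = 0.218, 0.143 and 0.134 over 12965 genes for same-numbered libraries, and at -0.13 to -0.01 for others. Deviations cancel within a line, so positive values for same-numbered libraries force negative ones for others on average. Pairing by replicate number rests on the titles and these correlations. The library numbers in the column headers also rise in that order in both lines. No label names a shared batch, and the main fit did not use the pairing. Alternatives were other scalings, filters, DESeq2 1.42.0, limma 3.58.1 on log2(FPKM + 1) and log2(FPKM + 0.1), leaving out libraries, and the replicate block.

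Of the members, 1 is not reported here by name and is left out of the plots by gene. Every other member was named, in full where it reached 1 CPM on average in a line or was called, and up to 3 called genes in each direction per list with the largest log2 fold change among those with at least 1 CPM in the higher line. Members, lists and complexes were chosen with earlier results of these data known. Promoters came from RefSeq.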

Additional observations from a re-analysis of the deposited data

How the results depend on the processing

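Of 489 alternative values of the 29 tested members, 471 kept direction and side of the threshold, and 24 members did so in every alternative run. The exceptions were Lama5, Lamb1, Itgae, Itgb5 and Itga6. The sign changed in 10 values, none past the threshold. Itga6 was at 0.045 with upper quartile scaling, 0.15 with library totals, 0.14 on log2(FPKM + 1), 0.14 on log2(FPKM + 0.1), -0.077 to 0.034 on leaving out 1 library and 0.037 with replicate 3 as the only MV+ library, and Lama5 was at 0.021 with library totals, 0.019 on log2(FPKM + 1) and 0.020 on log2(FPKM + 0.1). Lama5 also passed with no filter (-0.19, adjusted p = 0.0244), without MV+ replicate 3 (-0.24, adjusted p = 0.0196) and without RAG replicate 2 (-0.22, adjusted p = 0.0259). The replicate block gave 10766 called genes, 20 members higher in MV+ and 7 lower, and changed no other member's call. Members higher in MV+ numbered 16 to 23 and members lower 6 to 8 over the alternatives, the fewest under the filter of 1 CPM, which left 25 members tested. Leaving out 1 library gave 10005 to 10137 called genes, 20 to 21 members higher and 6 to 7 lower. With deposited FPKM or library totals, genes higher in MV+ were 60.6 to 61.0% of those called, against 50.9%, and the median of all genes shifted by 0.17 to 0.18. On raw counts in place of FPKM the differences in share, MV+ minus RAG, were 27.9 points for Itgav, -27.7 for Itga3, 6.27 for Itgb1 and -2.45 for Lamc1, since chains differ in length, against 22.3, -24.9, 8.23 and -3.73. Leaving out 1 library gave 21.6 to 23.1 points for Itgav, -25.4 to -24.1 for Itga3, 7.79 to 8.75 for Itgb1, -28.3 to -24.2 for Lama5, -22.2 to -20.4 for Lamb1, -3.97 to -3.39 for Lamc1, 76.2 to 93.7 for Nid1 and -93.7 to -76.2 for Nid2. With no filter all 39 members were tested, and of the 10 with few counts Itga2 (3.17, adjusted p = 0.00179), Itga11 (1.61, adjusted p = 0.00271) and Lama1 (3.86, adjusted p = 0.0414) passed as higher in MV+ and Itgb6 (-2.20, adjusted p = 0.0126) as lower. For Itga8, Itga9, Itgad, Itgal, Itgam and Itgax, with at most 3 counts in a library, no difference was detectable at this depth, which does not show that there was none. Of 510 alternative values of the 30 list genes named, 503 kept direction and side and 0 reversed, the exceptions being Adam9 and Pomt1.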
